A study of Rattus norvegicus with 17 samples.

Results

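Timp1, Mmp2 and Mmp9 encode a secreted inhibitor of metalloproteases and the pair of gelatinases, enzymes that cut denatured collagen and basement membrane collagen. They are 3 of the 32753 genes in a table of read counts from rat lung, and were taken by their Ensembl IDs: ENSRNOG00000010208 for Timp1, ENSRNOG00000016695 for Mmp2 and ENSRNOG00000017539 for Mmp9. The table lists IDs without names, and the names of these 3 genes come from the definition of the set. All 3 were among the 15000 genes abundant enough to be tested.

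Lung parenchyma of Wistar rats (strain RjHan:WI) was profiled by sequencing of mRNA libraries in 3 groups. The 6 control libraries (numbers 1 to 6) came from rats given NaCl. The 5 bleomycin libraries (7, 8, 9, 11 and 12) came from rats given bleomycin at 1 mg per kg, a cytotoxic antibiotic that injures the lung and leads to fibrosis. The 6 treated libraries (13 to 18) came from rats given the same dose of bleomycin and BI1015550 at 2.5 mg per kg, described by the title as an inhibitor of the phosphodiesterase PDE4B, an enzyme that degrades cyclic AMP, in a therapeutic model. Route, time point, sex, age and batch are not given in the labels used here. Whether every library stands for its own animal is not stated, so the tests refer to the spread between the sequenced libraries, which may be partly technical.

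Metalloproteases of this family are secreted as inactive proenzymes and are held in check by the tissue inhibitors of metalloproteases, the TIMPs. TIMP-1 binds the active site of most matrix metalloproteases and also forms a complex with the proenzyme of MMP-9. MMP-2 is made by fibroblasts and other mesenchymal cells and is activated at the cell surface with the help of TIMP-2 and a membrane-bound metalloprotease. MMP-9 is stored in neutrophil granules and is also made by macrophages and by stimulated epithelium. Fibrotic lungs are known for raised TIMP-1. RNA levels, as measured here, say nothing of proenzyme activation or of enzyme activity.

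The promoter of Timp1 is shown because Timp1 had the largest change of the 3 genes, and it was the only one of the 3 with an entry in the promoter table. The stretch is the 250 bases before the start of transcription in RefSeq, on the minus strand of chrX:3771123-3771372 of the assembly GRCr8, which is not listed as a build of these counts. The span of Timp1 in RefSeq reaches further upstream than this start. Capitals mark a variant of the AP-1 site, TGAGTAA, and the core of the cyclic AMP response element, TGACG.
Timp1 promoter: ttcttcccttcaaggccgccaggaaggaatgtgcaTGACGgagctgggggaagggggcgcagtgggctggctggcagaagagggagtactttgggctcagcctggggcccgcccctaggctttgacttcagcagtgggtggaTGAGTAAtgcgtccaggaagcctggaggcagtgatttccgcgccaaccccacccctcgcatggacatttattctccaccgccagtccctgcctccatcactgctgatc
AP-1 is a family of transcription factors made of Fos and Jun proteins, and the cyclic AMP response element is bound by CREB. Motifs were searched on both strands in the same 250 bases of 33469 rat promoters. TGAGTAA lay 108 to 102 bases before the start of Timp1 and was present in 2.38% of promoters. TGACG lay 215 to 211 bases before the start, without overlap with TGAGTAA, and was present in 18.2% of promoters. The AP-1 consensus TGANTCA, held by 6.34% of promoters, and the full element TGACGTCA, held by 1.59%, had no match in these letters of Timp1. Of the other motifs searched, the ETS core GGAAG matched 4 times (in 63.3% of promoters, overlapping no capitals) and the GC box GGGCGG 1 time (30.5%). The TATA box TATAAA (12.9%), the STAT element TTCNNNGAA (7.67%) and the SMAD element GTCTAGAC (0.173%) had no match. Guanine and cytosine made up 61.2% of the stretch, against a median of 51.2% over all promoters. The motifs were chosen after the sequence of Timp1 had been seen, so their shares of promoters do not show that a match is unusual. These matches describe the letters only, and no binding was measured.

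The libraries held between 14609389 and 18462105 counts, and treated libraries (at most 15889091) were shallower than controls (at least 15919392). Values below are CPM (counts of a gene relative to the total of its library), after TMM scaling of the library sizes, which corrects for differences in composition. Markers of lung cell types were not checked, because the tables used here pair no other ID with a name. For the same reason the other metalloproteases, TIMPs and plasmin system genes that were to be listed were not analysed here. Pairs of libraries within a group differed by a chi-square per gene of 11.5 to 86.4, far above the 1 that sampling alone gives. None was thus a second deposit of another in its group, and pairs across groups were not compared.

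The 3 genes took 3 different courses over the groups. Timp1 rose with bleomycin and was lower in treated lungs, Mmp2 rose with bleomycin and kept most of the rise in treated lungs, and Mmp9, the gene with the fewest counts, was highest in treated lungs. Of the 15000 genes, 1662 (11.1%) had the calls of Timp1 over the 3 comparisons (higher with bleomycin, lower with the compound, not called against control). The lack of a call of Timp1 against control depended on the fit, as given below. The calls of Mmp2 (higher, not called, higher) were shared by 269 genes (1.79%), counting Mmp2. Only 5 genes (0.0333%), Mmp9 among them, were called higher in all 3 comparisons, and this course of Mmp9 rests on its call with bleomycin, which several single libraries decided. In whole lung, a change in the number of cells that make an RNA and a change in the RNA per cell cannot be told apart.

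**Figure D1:**
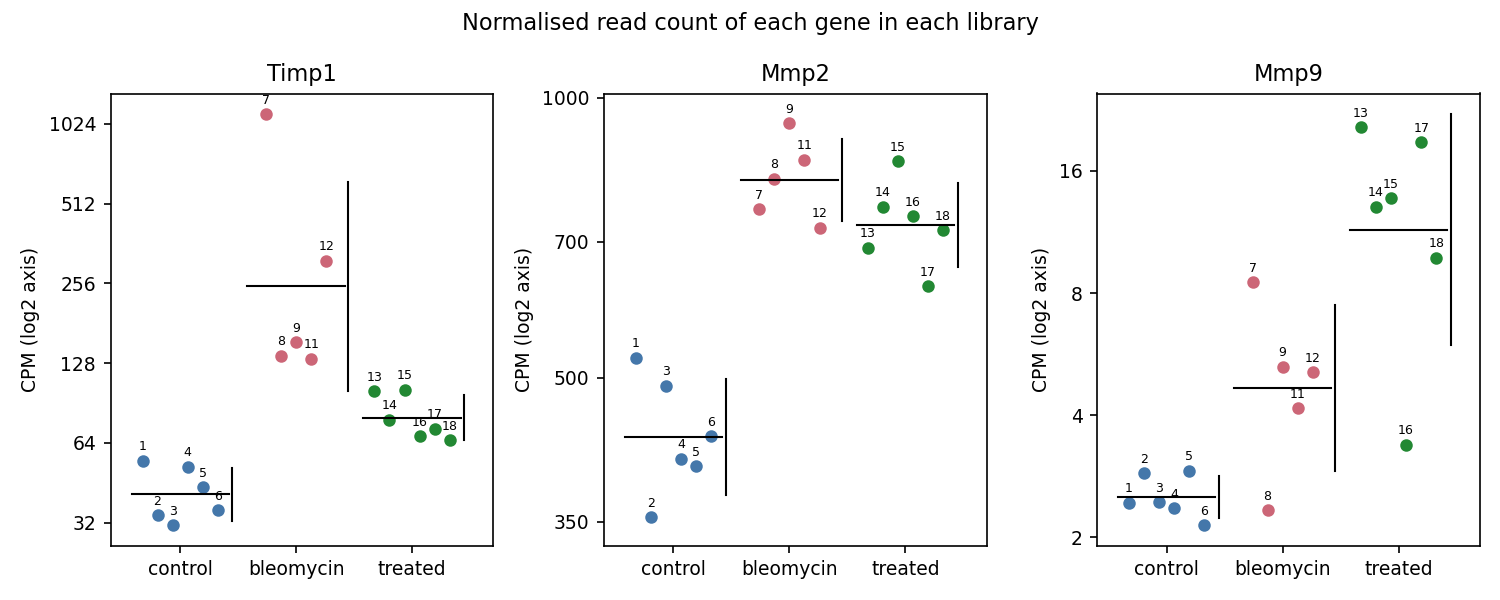
CPM of Timp1, Mmp2 and Mmp9 (log2 axes, a different range in each panel) in the 17 libraries, numbered as in their titles; horizontal lines are geometric means and vertical lines span 1 SD of log2 CPM on either side. Bleomycin library 7 stands at 1114 CPM of Timp1, Mmp2 is above every control in all bleomycin and treated libraries, and treated library 16 stays at 3.38 CPM of Mmp9.

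The inhibitor Timp1 lay at 31.3 CPM in the lowest control, 39.6 at the median and 54.8 in the highest. With bleomycin it reached 1114 CPM in library 7, 137 in library 8, 154 in library 9, 133 in library 11 and 312 in library 12. Every bleomycin library was above every control, and libraries 7 and 12 stood apart from the 3 others of their group. In treated lungs Timp1 lay between 65.4 and 102 CPM, with a median of 75.4. The treated libraries thus fell between the other groups, above the highest control and below the lowest bleomycin library, and the order control, treated, bleomycin had no overlap between neighbours.

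Bleomycin raised the mean of Timp1 from 41.9 ± 9.82 CPM (SD, n = 6) to 370 ± 423 CPM (SD, n = 5). The log2 fold change was 3.14 (SE 0.463, 95% interval 2.17 to 4.12, edgeR adjusted p = 7.88e-05), or 8.83-fold. Of all genes tested, 38.3% were called in this comparison in either direction and 20.2% as higher, and for 18.1% bleomycin and control ranges were fully apart. Higher calls outnumbered lower ones (3032 against 2706). That balance turned under upper quartile scaling (2793 against 2892) and total count scaling (2502 against 3306). Timp1 was still higher there, by log2 fold changes of 3.09 and 3.08. Of the 15000 genes, 57 had a larger log2 rise than Timp1. Library 7 carried much of the size: without it the other bleomycin libraries averaged 184 ± 85.8 CPM (SD, n = 4) and the log2 fold change was 2.13. Without libraries 7 and 12 it was 1.76 (edgeR adjusted p = 1.21e-05).

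Treated lungs held 81.1 ± 16.1 CPM of Timp1 (SD, n = 6), 4.56-fold less than bleomycin lungs. The log2 fold change was -2.19 (SE 0.448, 95% interval -3.13 to -1.25, edgeR adjusted p = 0.00291), where 27.8% of all genes were called in either direction and 15.7% as lower. Lower calls outnumbered higher ones (2350 against 1813), a balance that turned under total count scaling (1872 against 2349), where Timp1 was still lower by a log2 fold change of -2.13. Group ranges did not overlap, as for 14.1% of genes. The difference shrank to -1.18 without bleomycin library 7 and to -0.80 without libraries 7 and 12 (edgeR adjusted p = 0.0120), and remained past the threshold in both. It was -1.26 with limma voom and quality weights for libraries (adjusted p = 0.00429). The coefficient of variation of Timp1 was 19.9% in treated lungs, 23.4% in controls and 114% with bleomycin.

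Against control, treated lungs had 1.94-fold more Timp1, and whether this passed the test depended on the fit. All 6 treated libraries lay above all 6 controls, which was so for 5.59% of genes in either direction. The log2 fold change was 0.95 (SE 0.426, 95% interval 0.06 to 1.85), with an edgeR adjusted p of 0.190, in a comparison where 8.39% of genes were called. That fit gives all groups 1 estimate of spread for a gene, and the bleomycin libraries made it wide for Timp1 (biological coefficient of variation 49.2%, against 19.9% for genes in common). Fitted on control and treated libraries alone, the adjusted p was 0.00239 at a log2 fold change of 0.95. It was 0.00913 without bleomycin library 7 and 0.00735 with limma voom and quality weights, where the log2 fold change was 1.09. An exact permutation test of log2 CPM, two-sided, gave an unadjusted p of 0.00216, the smallest that 6 against 6 libraries allow.

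The gelatinase Mmp2 had the most reads of the 3 genes, 6587 to 14078 counts per library, with no correction for gene length. In controls it lay between 354 and 525 CPM, with a median of 421. With bleomycin it reached 759 CPM in library 7, 818 in library 8, 938 in library 9, 858 in library 11 and 725 in library 12. All were above the highest control, and libraries 7 and 12, the highest of their group for Timp1, were the lowest for Mmp2. In treated lungs Mmp2 lay between 627 and 855 CPM, with a median of 733, again above every control and within reach of the bleomycin libraries.

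Bleomycin raised Mmp2 1.88-fold, from 435 ± 62.5 CPM (SD, n = 6) to 819 ± 83.9 CPM (SD, n = 5). The log2 fold change was 0.91 (SE 0.105, 95% interval 0.69 to 1.13, edgeR adjusted p = 9.64e-06). It was smaller than that of Timp1 and more precisely measured, and stayed between 0.86 and 0.97 whichever library was left out. Of the 15000 genes, 917 had a larger log2 rise and 20.2% were called higher. Bleomycin and control ranges were fully apart, in either direction, for 18.1% of genes. Treated lungs held 733 ± 76.3 CPM (SD, n = 6), a 1.68-fold excess over control at a log2 fold change of 0.75 (SE 0.101, 95% interval 0.54 to 0.96, edgeR adjusted p = 0.000447). In that comparison 529 genes had a larger log2 rise and 3.92% were called higher. Treated and control ranges were fully apart, in either direction, for 5.59% of genes.

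Treated and bleomycin lungs did not differ in Mmp2 beyond the spread between libraries. The log2 fold change was -0.16 (95% interval -0.38 to 0.06, edgeR adjusted p = 0.267), so that the level in treated lungs was between 0.768 and 1.04 times that with bleomycin. Of the 6 treated libraries, 3 lay below the lowest bleomycin library. A p above the threshold does not show that the groups were alike.

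The gelatinase Mmp9 was measured from few reads, 36 to 55 counts per control library. In CPM the controls lay between 2.14 and 2.92, with a median of 2.43. Their coefficient of variation of 12.1% was no larger than the 15.2% that counting alone gives at this depth. With bleomycin Mmp9 reached 8.50 CPM in library 7, 2.33 in library 8, 5.26 in library 9, 4.16 in library 11 and 5.11 in library 12. Library 8 lay within the controls and the 4 others lay above them. In treated lungs it was 20.5 CPM in library 13, 13.1 in library 14, 13.7 in library 15, 3.38 in library 16, 18.8 in library 17 and 9.77 in library 18. Of these, 5 of 6 were above every bleomycin library, while library 16 was above the controls only.

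Mmp9 was 2.60-fold higher in treated than in bleomycin lungs, at 13.2 ± 6.21 CPM (SD, n = 6) against 5.07 ± 2.24 CPM (SD, n = 5). The log2 fold change was 1.38 (SE 0.349, 95% interval 0.64 to 2.11, edgeR adjusted p = 0.00868), a direction called for 12.1% of genes. Libraries 13 and 17 were the highest, and without both the log2 fold change was 0.97 and no longer past the threshold (edgeR adjusted p = 0.0728). Leaving out single libraries gave 1.20 to 1.64, all past it. Group ranges overlapped through library 16.

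The rise of Mmp9 with bleomycin was just past the threshold, in a direction called for 20.2% of all genes. The mean went from 2.53 ± 0.305 CPM (SD, n = 6) to 5.07 ± 2.24 CPM (SD, n = 5), a log2 fold change of 1.00 (SE 0.359, 95% interval 0.25 to 1.76, edgeR adjusted p = 0.0357). Leaving out 1 library ended the call for 7 of the 17 libraries, namely controls 1, 3, 4 and 6 and bleomycin libraries 7, 9 and 12. The adjusted p was highest, 0.131, without bleomycin library 7, where the log2 fold change was 0.73. Without libraries 7 and 12 these were 0.262 and 0.63. With limma voom and quality weights the log2 fold change was 0.84 and the adjusted p was 0.201.

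The difference between treated and control lungs was the largest of the comparisons for Mmp9 and did not depend on a single library. Treated lungs held 5.20-fold more (log2 fold change 2.38, SE 0.345, 95% interval 1.65 to 3.10, edgeR adjusted p = 0.000712), and all 6 treated libraries were above all controls. Ranges of these groups were fully apart, in either direction, for 5.59% of genes. Among 15000 genes, 53 had a larger log2 rise in this comparison, where 3.92% were called higher. Values lay between 2.21 and 2.58 with any 1 library left out and at 1.98 without libraries 13 and 17 (edgeR adjusted p = 0.00421). Counting gave a coefficient of variation of 7.10% in treated lungs, against the 47.1% observed, so most of the spread there was between libraries and not from depth.

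**Figure D2:**
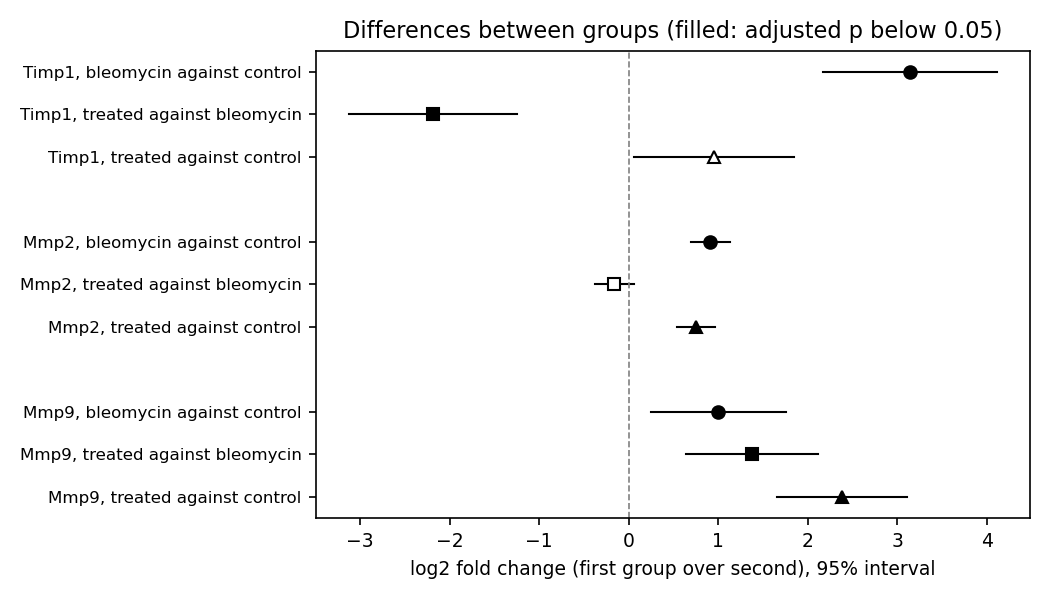
Log2 fold changes of the 3 genes in the 3 comparisons (horizontal axis, first group over second) with 95% intervals from edgeR; filled symbols had an adjusted p below 0.05. Timp1 goes from 3.14 with bleomycin to -2.19 with the compound, Mmp2 stays near 0 in the latter (-0.16), and Mmp9 is above 0 in all 3 comparisons.

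**Figure D3:**
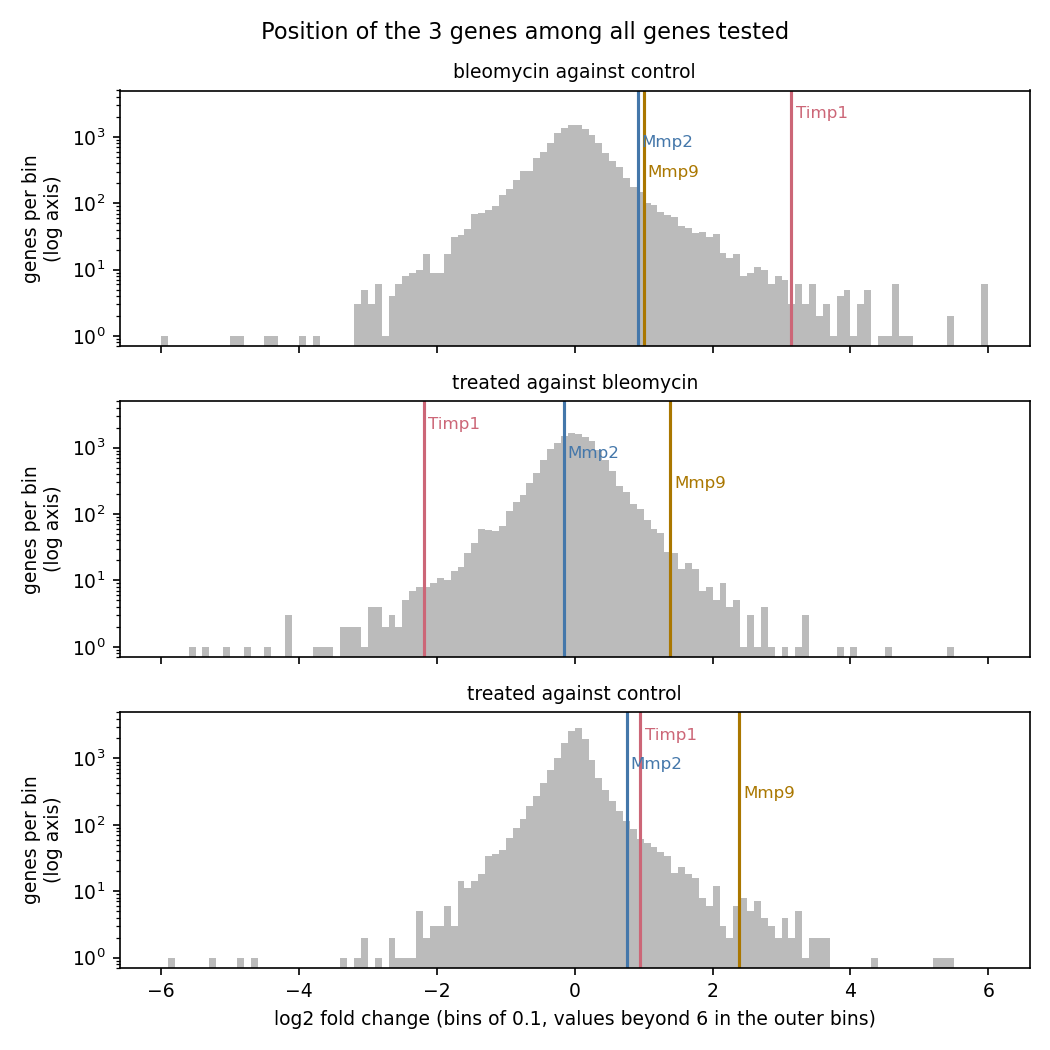
Histograms of the log2 fold changes of all 15000 genes tested (bins of 0.1, log vertical axis) with vertical lines at Timp1, Mmp2 and Mmp9. Timp1 lies in the upper tail with bleomycin and the lower tail with the compound, and Mmp9 lies in the upper tail for treated against control at 2.38.

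As a share of the log2 rise of Timp1 with bleomycin, treated lungs retained 30.3% by the edgeR fold changes, or 44.7% without bleomycin library 7. Group means of log2 CPM, on which the rise of Timp1 is smaller, gave 36.9%, and on that scale single treated libraries lay between 25.9% and 50.3%. For Mmp2 the share was 82.5% on both scales, between 58.6% and 107% in single libraries by log2 CPM. For Mmp9 the difference from control in treated lungs was 238% of that with bleomycin by edgeR and 247% by log2 CPM, where single libraries lay between 47.4% (library 16) and 343% (library 13). These shares use the same controls in both parts and are descriptions without a test.

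Whether the genes changed unequally was tested on ratios within each library, which do not depend on library scaling beyond a small added count. They are not corrected for gene length, so their changes can be read but not their levels. For every 100 counts of Mmp2, the controls held 6.40 to 12.7 counts of Timp1 (mean 9.70 ± 2.19, SD, n = 6). Bleomycin libraries held 147 in library 7, 16.7 in library 8, 16.4 in library 9, 15.5 in library 11 and 43.0 in library 12. Treated libraries held 9.08 to 14.6 (mean 11.1 ± 2.08, SD, n = 6). All bleomycin libraries were thus above all others in this ratio of inhibitor to gelatinase RNA, while treated and control libraries overlapped.

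On the log2 scale the ratio of Timp1 to Mmp2 rose by 1.69 with bleomycin (two-sided exact permutation p = 0.00216, or 0.00648 when adjusted over the 9 ratio tests). In treated lungs it differed from bleomycin by -1.48 (exact permutation test, p = 0.00216, adjusted p = 0.00648). Timp1 therefore rose more than Mmp2 with bleomycin and was reduced more in treated lungs, although the size of both differences moved with library 7, to 1.12 and -0.92 without it. Treated and control lungs differed by 0.20, within the spread (exact permutation test, p = 0.288).

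The ratio of Timp1 to Mmp9 moved further. In controls its log2 value was 3.96 ± 0.382 (SD, n = 6). Bleomycin libraries averaged 5.70 ± 0.877 (SD, n = 5), and treated libraries were the lowest at 2.78 ± 0.807 (SD, n = 6). The rise with bleomycin of 1.74 had an exact permutation p of 0.00216 (adjusted p = 0.00648). Treated lungs lay below bleomycin lungs by a difference of -2.92 (exact permutation test, p = 0.00433, adjusted p = 0.00974), with every treated library below every bleomycin library. They also lay below controls, by -1.18 (exact permutation test, p = 0.0130, adjusted p = 0.0228), where library 16 alone was within the range of the controls. Without treated libraries 13 and 17 that difference was -0.85 and missed the threshold (exact permutation test, adjusted p = 0.0857).

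The gelatinases were also compared with each other. Bleomycin left the log2 ratio of Mmp2 to Mmp9 at 7.41 ± 0.705 (SD, n = 5) against 7.36 ± 0.324 in controls (SD, n = 6), a difference of 0.05 that was within the spread (exact permutation test, p = 0.877). In treated lungs the ratio was 5.97 ± 0.983 (SD, n = 6), lower than in controls by a difference of -1.38 (exact permutation test, p = 0.0152, adjusted p = 0.0228). It was lower than with bleomycin by a difference of -1.44 (exact permutation test, p = 0.0303, adjusted p = 0.0390). The last difference missed the threshold when any of 9 single libraries was left out (adjusted p up to 0.0918), and library 16 again lay with the other groups. Without libraries 13 and 17 the difference from controls was -0.92 (exact permutation test, adjusted p = 0.0857).

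**Figure D4:**
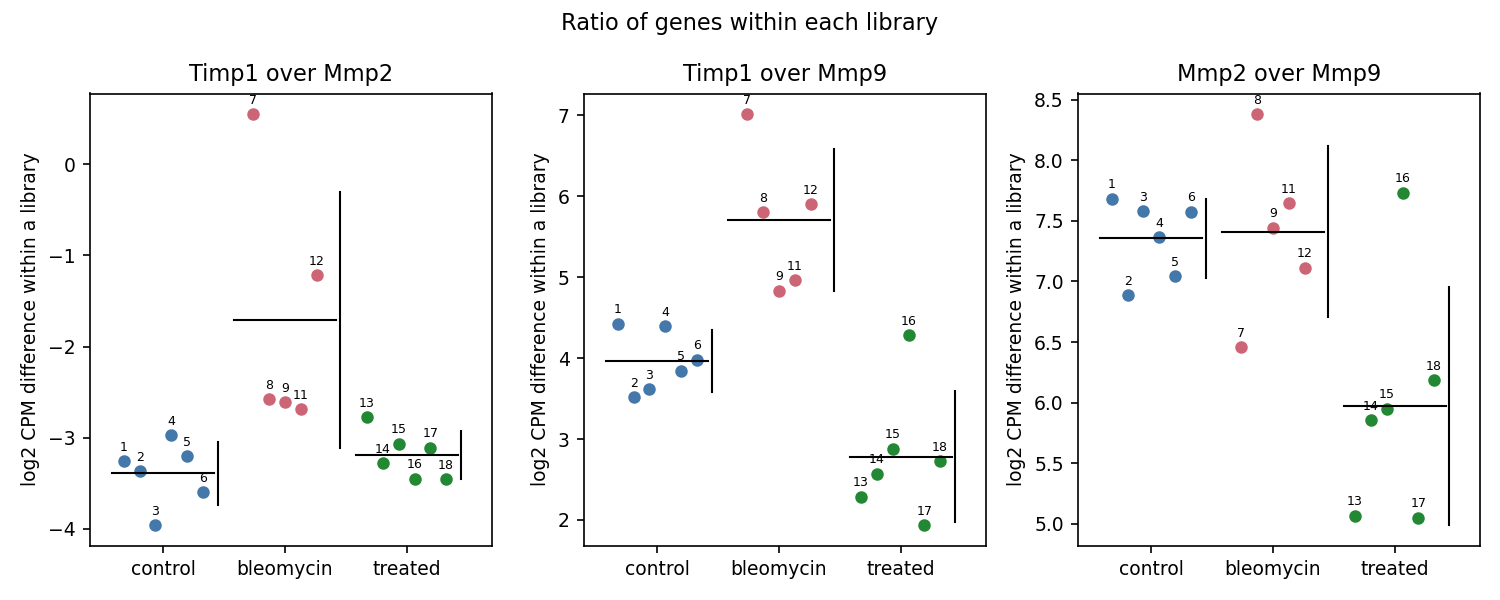
Within-library differences in log2 CPM for the 3 pairs of genes (vertical axes) in the 17 libraries, with group means as horizontal lines and 1 SD on either side as vertical lines. Every bleomycin library lies above every other library in the ratio of Timp1 to Mmp2, and the ratios to Mmp9 are lowest in treated libraries other than 16.

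Within controls and within treated lungs, no relation between the genes passed a test. Over the 6 controls and over the 6 treated libraries, Pearson's r for the 3 pairs lay between -0.52 (Mmp2 and Mmp9 in controls) and 0.56 (Timp1 and Mmp9 in treated lungs, Spearman's rho 0.66). Exact permutation p-values lay between 0.175 and 0.885, and the smallest adjusted p over 12 values was 0.718. Without the 2 libraries farthest from the median of Timp1, the r of 0.56 became 0.50, but in controls r turned from 0.25 to -0.37 for Timp1 and Mmp2 and from -0.07 to 0.45 for Timp1 and Mmp9. Correlations were tested only in groups of at least 6 libraries, so the 5 bleomycin libraries were not tested. Their highest library for Timp1, library 7, was also the highest for Mmp9 and the second lowest for Mmp2.

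The likeness of other genes to each member is a description over all 17 libraries, which share the group differences. Among 11722 genes with a mean of at least 5 CPM, 136 had a Pearson r above 0.9 with Timp1 in log2 CPM, 16 with Mmp2 and 11 with Mmp9. The gene most like Timp1 was ENSRNOG00000012280 (r = 0.986), with 3.60 ± 0.729 CPM in controls, 34.6 ± 43.5 with bleomycin and 7.86 ± 1.89 in treated lungs (SD, n = 6, 5 and 6). The gene most like Mmp2 was ENSRNOG00000061484 (r = 0.964), with 102 ± 16.7, 308 ± 79.6 and 218 ± 26.6 CPM in the same order. The 3 genes most like Mmp9 (r = 0.939 to 0.956) were not called with bleomycin (log2 fold changes of 0.20 to 0.86, edgeR adjusted p = 0.147 to 0.228). Mmp9 itself was just past the threshold (1.00, edgeR adjusted p = 0.0357), so the calls do not show a different course. Mean CPM in the same order was 102, 118 and 152 for the first gene and 9.29, 13.1 and 37.6 for the second. It was 2.88, 5.24 and 18.1 for the third, against 2.53, 5.07 and 13.2 for Mmp9. All were highest in treated lungs, which their choice by likeness to Mmp9 made likely.

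**Figure D5:**
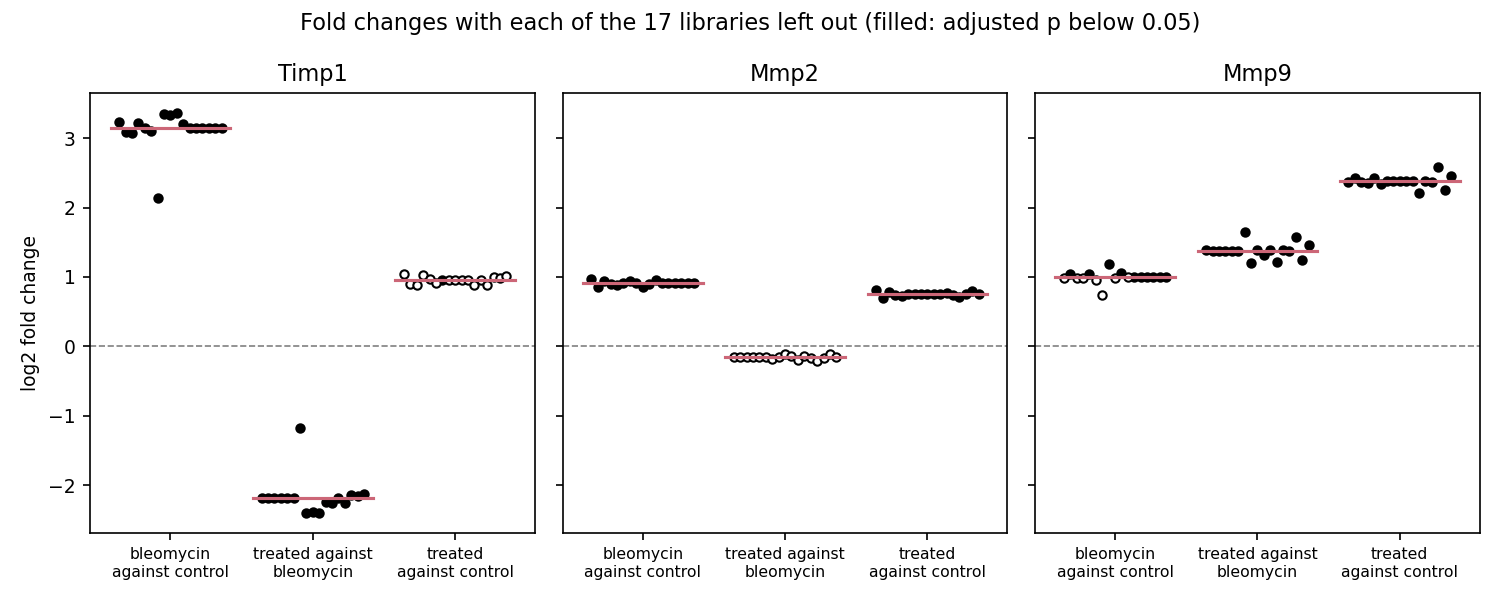
Log2 fold changes (vertical axis) of each gene in each comparison with 1 of the 17 libraries left out in turn (points, filled where the adjusted p is below 0.05), beside the value from all libraries (red line). Timp1 moves most without bleomycin library 7, to 2.13 and -1.18, and the rise of Mmp9 with bleomycin loses its call for 7 libraries.

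An overlapping gene is a possible limit on the value of Timp1 that was not tested. In the RefSeq gene table of GRCr8, Timp1 (chromosome X) lies within the span of Syn1, a neuronal gene on the opposite strand, while Mmp2 (chromosome 19) and Mmp9 (chromosome 3) overlap no other gene. Only the spans of genes were compared, and whether exons of Syn1 and Timp1 overlap was not examined. Whether the counting used strand is not given in the sources used here, so reads of any shared stretch may not have been told apart. The level of Syn1 was not analysed here.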

How the data were processed

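Column-purified RNA (RNeasy mini plus) was made into TruSeq mRNA libraries, per the labels' protocols. The deposited file is a table of raw read counts (whole numbers) by Ensembl rat gene ID, with a column for each of the 17 libraries. STAR 2.5.2 and 2.5.2b, featureCounts 1.5.1 and RSEM 1.3.0 and the builds Rnor_6.0, hg38 and GRCh38 are listed, per the submitters' processing notes. For the tool behind the counts, the annotation and the strand setting, the detail is not given in the sources used here.

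Counts were analysed with edgeR 4.0.16 in R 4.3.3: of 23083 genes with a count, 15000 passed filterByExpr, libraries were scaled by TMM, and 1 quasi-likelihood model held all 3 groups. P-values were adjusted by the Benjamini-Hochberg method over all genes tested, and a gene was called at an adjusted p below 0.05. The SE is the log2 fold change divided by the square root of F. Log2 CPM used a prior count of 2. Ratios within libraries were tested by exact permutation of the library labels (two-sided, smallest p 0.00216). The edgeR step was run on simulated counts in which a gene had the same spread in all groups. This does not test the fit where the spread differed between groups, as for Timp1. Alternatives were upper quartile, RLE and total count scaling, no filter, DESeq2 1.42.0, limma voom with library quality weights (limma 3.58.1), fits of the 2 groups compared and libraries left out. Robust estimation, leaving out bleomycin libraries 7 and 12, and the permutation test of single genes were added after seeing the data.

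Genes were named by rule: the 3 members, and the ID most like each in log2 CPM in the order Timp1, Mmp2, Mmp9, up to 2 IDs that rose and 2 that fell with bleomycin, which left those most like Mmp9 unnamed. The members, lists and tests were chosen with earlier results of these data known. The promoter motifs were chosen after the sequence of Timp1 had been seen. The lists of matrix proteolysis genes and cell type markers needed symbols and were not analysed here.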

Additional observations from a re-analysis of the deposited data

Results flagged for a closer look

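Of 21 groups of library values examined (CPM of the 3 genes, their ratios and total counts, in 3 groups), 1 held a library far from the rest. Bleomycin library 7 held 1114 CPM of Timp1. The next library of its group held 312 CPM and the lowest 133 CPM, so the gap to the next took 0.818 of the group's range, against a limit of 0.71 in Dixon's test for 5 values. The flag depends on the use of CPM. On the log2 scale libraries 7, 12 and 11 stood at 10.1, 8.28 and 7.06, where the gap is a smaller part of the range, below the limit. Chance alone flags about 1 in 20 groups of normally distributed values. The same library was the highest of its group for Mmp9 at 8.50 CPM and the second lowest for Mmp2 at 759 CPM. Its total count of 15930870 lay within the range of its group.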

How the results depend on the processing

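No difference of a single gene changed sign under any alternative run, and the calls of Timp1 and Mmp2 with bleomycin, of Timp1 in treated against bleomycin and of Mmp2 and Mmp9 in treated against control were kept throughout. Timp1 in treated against control passed the threshold with limma voom and quality weights (1.09), in the fit of 2 groups (0.95) and without bleomycin libraries 7 and 12 (0.96). With 1 library left out it lay between 0.88 and 1.05, and passed only without bleomycin library 7 (0.95, edgeR adjusted p = 0.00913). By exact permutation (0.96) the p of 0.00216 was unadjusted, unlike the others. Mmp9 with bleomycin missed the threshold with the same weighted fit (0.84) and without bleomycin libraries 7 and 12 (0.63), and lay between 0.73 and 1.18 with 1 library left out. Without treated libraries 13 and 17, Mmp9 in treated against bleomycin (0.97) missed it, as did the log2 ratios Timp1 to Mmp2 (-1.61) and Mmp2 to Mmp9 (-0.98) in treated against bleomycin and Timp1 to Mmp9 (-0.85) and Mmp2 to Mmp9 (-0.92) in treated against control. With 4 treated libraries left, fewer libraries alone raise the permutation p. Mmp2 to Mmp9 in treated against bleomycin was -1.85 without bleomycin libraries 7 and 12, also past the threshold no longer, and between -1.79 and -1.19 with 1 library left out. The same ratio for bleomycin against control, 0.05 in all libraries and never past the threshold, turned to -0.04 and -0.0085 without controls 2 and 5 and to -0.19 and -0.0056 without bleomycin libraries 8 and 11 (-0.19 to 0.29). With 1 library left out, the retained share of Timp1 lay between 27.9% and 44.7%. It was not computed for limma voom or without bleomycin libraries 7 and 12. Against the log2 rises with bleomycin there (2.36 and 1.76), the 1.09 and 0.96 of treated lungs put the share above that range.

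Genes called in treated against control (1259) numbered 2546 with limma voom and quality weights and 794 to 1573 with 1 library left out, with 794 without control 2, 825 without control 3 and 821 without treated library 15. Genes called in treated against bleomycin (4163) numbered 1929 without treated libraries 13 and 17 and 2382 without bleomycin libraries 7 and 12. The cause of these shifts was not tested. No paired analysis was possible because every library number in the labels occurs once. Depth limits Mmp9 in controls, where 36 to 55 counts give a counting error of 15.2%. That figure covers counting error only.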
